A study of Rattus norvegicus with 9 samples.

Results

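The genes described here carry glucose carbon through glycolysis and into the citrate cycle of the rat left ventricle. They are 43 genes of 22608 gene names in the deposited tables, listed by name for glucose uptake (2 genes), upper glycolysis (10), lower glycolysis (7), lactate dehydrogenase and the mitochondrial pyruvate carrier (4), the pyruvate dehydrogenase complex (5), its kinases and phosphatase (4) and the citrate cycle (11). All 43 had a mean of at least 1 CPM (estimated counts relative to the scaled library total) over the 9 libraries, the lowest a mean of 2.39 CPM, and all 43 were among the 15467 genes tested.

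Left ventricles of Sprague-Dawley rats, labelled as 8 weeks old plus 28 days, were profiled by RNA sequencing, with 3 libraries in each of 3 groups. The groups were angiotensin II with sodium butyrate (Ang II+NaBu), angiotensin II (Ang II) and saline, and per the series title the study asked about Ang II-induced myocardial fibrosis with and without sodium butyrate. Ang II constricts vessels and loads the heart with pressure, and butyrate is a product of gut bacteria that blocks histone deacetylases. The labels give no dose, no route, no sex and no count of animals, and whole tissue was used, so fewer cells of a type and less RNA per cell cannot be told apart. The Ang II+NaBu libraries are named by their column numbers 2, 4 and 6.

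Glycolysis splits glucose into pyruvate in the cytosol, and pyruvate is then either turned into lactate or carried into mitochondria. There the pyruvate dehydrogenase complex makes acetyl-CoA from it, its kinases switch the complex off by phosphorylation, its phosphatase switches it back on, and the citrate cycle burns the acetyl-CoA. The adult heart lives mostly on fatty acids and takes a smaller share of its energy from glucose and lactate, and pressure-loaded hearts are known for a shift towards glucose use.

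With butyrate added to Ang II, 42 of the 43 genes had a higher level than under Ang II alone and 1, Pfkfb2, had a lower level. The median log2 difference (Ang II+NaBu minus Ang II) was 0.39 over the 43 genes and -0.02 over all genes tested, with a range of -0.32 to 0.70 over the 43. Of these, 36 had all 3 Ang II+NaBu libraries above all 3 Ang II libraries, a pattern found in 18.1% of all genes tested, and 1 had all 3 below, a pattern found in 17.5%. Single genes did not pass the test: edgeR's quasi-likelihood test with Benjamini-Hochberg adjustment over all genes called 0 of the 43 at an adjusted p under 0.05, while it called 1.6% of all genes. At an unadjusted p under 0.05 there were 18 of the 43 genes (41.9%), all higher with butyrate, against 22.4% of all genes, and DESeq2 called 12 of the 43, all higher, beside 13.1% of all genes it tested. The edgeR count rests on the saline libraries that share the estimate of the spread: it was 21 higher without saline replicate 2, where 9.43% of all genes were called, and 2 without saline replicate 3, where 3.54% were. It was 21 higher and 1 lower, Pfkfb2, when the Ang II+NaBu and Ang II libraries were fitted alone, and that fit called 11.9% of all genes.

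Against saline, Ang II+NaBu hearts had a higher level of 40 of the 43 genes, with a median log2 difference of 0.43 against -0.05 over all genes. Without saline replicate 2, the library with the highest atrial transcripts, the median was 0.27 and 5 genes changed sign (Slc2a1, Pfkp, Pfkl, Aldoc and Gapdh). edgeR called 5 of the 43, all higher: Pdha1, Dlat, Pdk1, Pdp1 and Idh3a. This background was 5.06% of all genes. All 3 Ang II+NaBu libraries lay above all 3 saline libraries for 27 of the 43 genes (14.5% of all genes) and below for 0 (14.1% of all genes). An unadjusted p under 0.05 was reached by 24 of the 43, all higher (55.8%, against 24.6% of all genes), and DESeq2 called 21, beside 15.1% of all genes it tested. The 5 edgeR calls depend on single libraries. Without Ang II+NaBu replicate 2 or replicate 6 there were 0 calls (0.0571% and 0.0381% of all genes). Without Ang II+NaBu replicate 4, Ang II replicate 2 or Ang II replicate 3 there was 1, Pdp1 (0.705%, 1.29% and 1.4% of all genes). Leaving out Ang II replicate 1 gave 6 calls, Dlat, Mpc2, Pdha1, Pdk1, Pdk4 and Pdp1 (4.05% of all genes), without Idh3a. Leaving out saline replicate 1 gave 3 calls (2.61% of all genes) and leaving out saline replicate 3 gave 14 (8.24% of all genes). The fit without saline replicate 2 gave 4 higher (Pdha1, Pdk1, Pdk4 and Pdp1) and 1 lower, Pfkfb2 (2.76% of all genes). Dlat and Idh3a were not called in that fit. When the Ang II+NaBu and saline libraries were fitted alone, 0 were called (0.0596% of all genes).

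Ang II alone against saline showed no called gene among the 43 or among all genes (edgeR, 0 called, 0% of all genes). Over all genes, 918 had an unadjusted p under 0.05, and DESeq2 called 60. Of the 43, 27 had a higher and 16 a lower level in Ang II libraries, with a median log2 difference of 0.04, and under scaling by total counts alone the split was 36 and 7. Only Pfkp had an unadjusted p under 0.05, with a lower level in Ang II libraries. DESeq2 called 0 of the 43. All 3 Ang II libraries lay above all 3 saline libraries for 0 of the 43 genes (4.94% of all genes) and below for 1, Slc2a1 (4.97% of all genes). The median was -0.12, with 7 genes higher and 36 lower, once saline replicate 2 was left out, and 0.17, with 37 higher and 6 lower, once saline replicate 3 was left out. Any 2 of the 3 comparisons share the libraries of a group, so the 3 sets of differences are not independent.

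**Figure D1:**
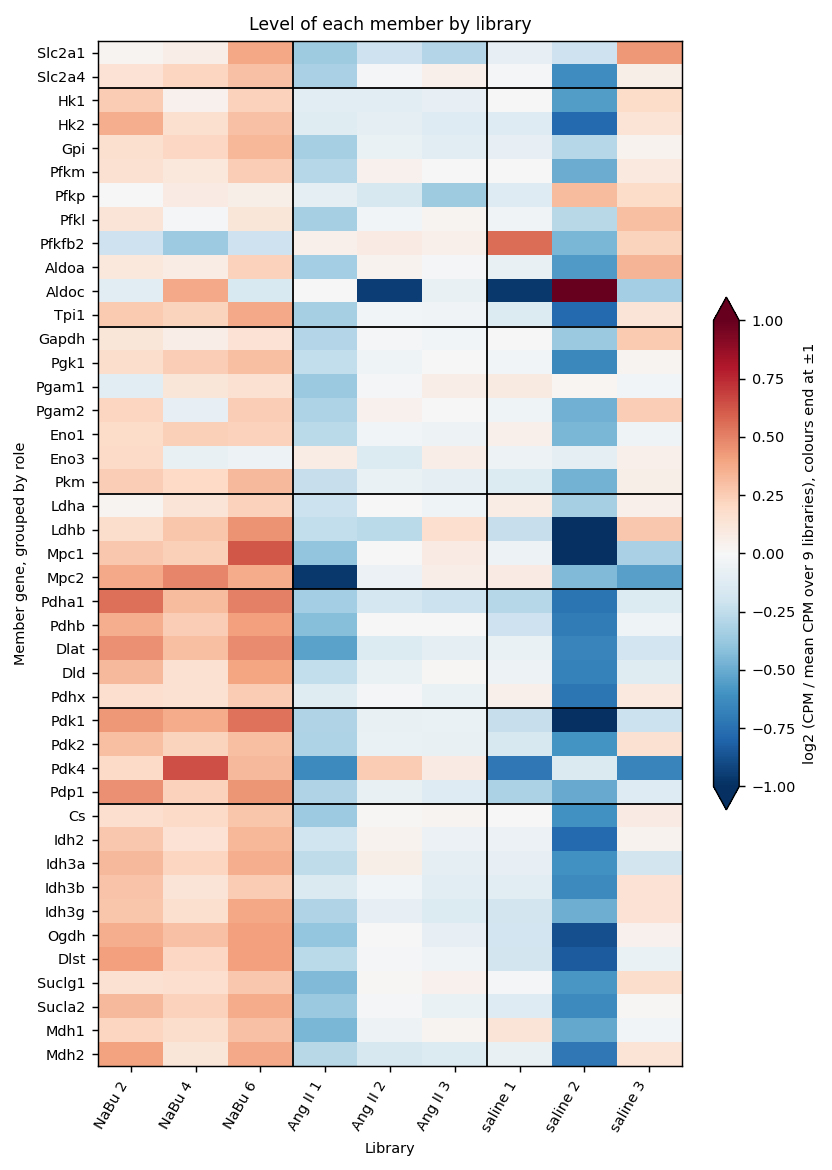
Level of each of the 43 genes (rows, grouped by role) in each of the 9 libraries (columns), as the log2 ratio of CPM to the gene's mean over the libraries. The 3 Ang II+NaBu columns are red for most genes, Ang II replicate 1 is blue for most, and saline replicate 2 is the lowest library for 34 of the 43 genes.

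The libraries of a group were not equally alike. The median log2 ratio of the 43 genes to their 9-library means was 0.22, 0.19 and 0.30 in Ang II+NaBu replicates 2, 4 and 6. In the Ang II group it was -0.30 in replicate 1, -0.03 in replicate 2 and -0.04 in replicate 3, and in the saline group it was -0.07, -0.58 and 0.06 in the same order. Saline replicate 2 was the lowest of all 9 libraries for 34 genes, Ang II replicate 1 was the lowest of its group for 38, and Ang II+NaBu replicate 6 was the highest of all 9 for 24. Without overlap, 36 genes were higher in Ang II+NaBu than in Ang II when Ang II replicate 1 was left out. Against saline there were 28 without saline replicate 2 and 36 without saline replicate 3. Leaving out a library can only keep or raise such a count, so these counts do not show whether the pattern rests on the low libraries. The shares of all genes for these smaller groups were not computed.

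Markers of heart muscle and of other cells moved with some of these libraries. The left ventricle label was not tested with these markers. The 7 atrial markers summed to 5930 CPM in saline replicate 2 and to between 53.9 and 303 CPM in the other 8 libraries. In saline replicate 2 atrial Myl7 was at 789 CPM and ventricular Myl2 at 240 CPM. Elsewhere Myl7 was at most 27.2 CPM and Myl2 at least 465 CPM. The 10 markers listed as ventricular cardiomyocyte summed to 80400, 72300 and 79500 CPM in Ang II+NaBu libraries. The sums were 66200, 68200 and 67800 CPM in Ang II libraries and 69300, 48700 and 80600 CPM in saline libraries. Saline replicate 2 was the lowest library for 9 of the 10, but not for Myh6, the highest of the 10, at 23600 CPM. Whether the list tells ventricular from atrial muscle was not tested, so its sum is not a measure of ventricular content. Of these 10 markers, 9 were higher in Ang II+NaBu than in Ang II (median log2 0.22, 0 called), and 8 were higher than in saline (median 0.21, 1 called, Pln). The 6 endothelial markers were all lower in Ang II+NaBu than in Ang II, with a median of -0.24 and 0 called. Of 8 fibroblast markers 6 were higher (median 0.16), and the 5 smooth muscle and pericyte markers (median -0.34) and 5 erythroid markers (median -0.51) were all lower, none of them called. Against saline, 8 of 8 fibroblast markers (median -0.37), 5 of 5 smooth muscle and pericyte markers (median -0.70) and 6 of 6 endothelial markers (median -0.16) were lower in Ang II+NaBu, with 0 called. All 7 atrial markers were lower too, with 1 called, Bmp10, which was at 0, 0.419 and 0.229 CPM in Ang II+NaBu libraries and 0.42, 646 and 22.2 CPM in saline libraries. Of the 5 erythroid markers 3 were higher than in saline (median 0.19), and of the 5 leukocyte markers 2 were (median -0.09). Against Ang II, 2 of 5 leukocyte markers were higher (median -0.03). In Ang II against saline, 8 of 8 fibroblast markers (median -0.48), 7 of 7 atrial markers (median -8.2) and 4 of 5 smooth muscle and pericyte markers (median -0.23) were lower. In that comparison 5 of 6 endothelial (median 0.10), 5 of 5 erythroid (median 0.67), 3 of 5 leukocyte (median 0.18) and 5 of 10 ventricular markers (median -0.02) were higher. None of them was called. Of 5 adipocyte markers only Lep and Cfd were tested, both lower in Ang II+NaBu than in Ang II (median -1.24) and than in saline (median -1.04), with 0 called. Adipoq was at 2.93 CPM in Ang II+NaBu replicate 4, 9.20 CPM in saline replicate 2 and at most 0.116 CPM elsewhere, and Plin1 was highest in the same 2 libraries. Cfd was at 4.09 CPM in Ang II+NaBu replicate 4, 5.58 CPM in Ang II+NaBu replicate 2 and 15.7 CPM in saline replicate 2. Lep was at 0.314 CPM in Ang II+NaBu replicate 4 and highest in Ang II replicate 1, at 1.42 CPM. The mitochondrial ribosomal RNA mt-Rnr2 took 7.07%, 7.56% and 6.46% of the counts in Ang II+NaBu libraries, 9.23%, 8.07% and 11.8% in Ang II libraries and 15.2%, 9.72% and 15.7% in saline libraries. The part of cell makeup or RNA makeup in the differences of the 43 genes was not tested.

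**Figure D2:**
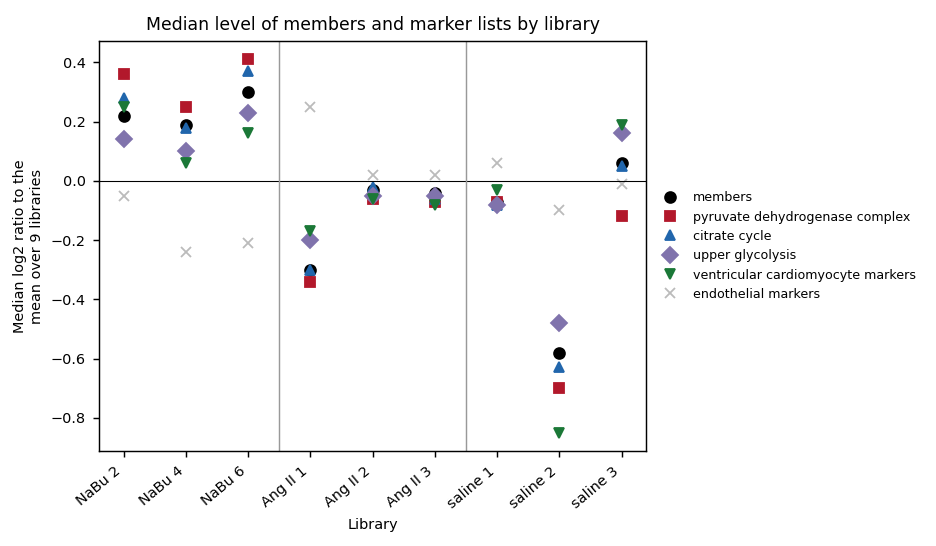
Median log2 ratio to the 9-library mean (y axis) in each library (x axis) for all 43 genes, 3 of their role groups, and the ventricular and endothelial marker lists. All 3 Ang II+NaBu libraries are above 0 for the 43 genes, while saline replicate 2 is at -0.58 for the 43 genes and at -0.85 for the ventricular markers.

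The pyruvate dehydrogenase complex and its regulators had the largest median differences from Ang II among the role groups. The complex consists of E1 (alpha subunit Pdha1, beta subunit Pdhb), which removes carbon dioxide from pyruvate, E2 (Dlat), which passes the acetyl group to coenzyme A, E3 (Dld), which reoxidises the lipoyl arm of E2, and the E3-binding protein Pdhx. All 5 had their 3 Ang II+NaBu libraries above their 3 Ang II libraries (18.1% of all genes) and above their 3 saline libraries (14.5% of all genes), with median log2 differences of 0.47 and 0.63. In Ang II against saline the 5 differences were between 0.04 and 0.16.

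Pdha1 had 1200, 1020 and 1160 CPM in Ang II+NaBu libraries, 646, 726 and 706 CPM in Ang II libraries and 673, 494 and 746 CPM in saline libraries. The lowest butyrate library stood above the highest of the other 6, and Ang II and saline libraries overlapped. The share of all genes with all butyrate libraries above the other 6 was not computed, for this gene or for those below. Pdha1 rose 1.77-fold in Ang II+NaBu against saline (log2 0.82, SE 0.15, edgeR adjusted p = 0.0226). Against Ang II the fold was 1.63 (log2 0.70, SE 0.149, adjusted p = 0.0501), the smallest adjusted p of the 43 genes in that comparison and just above the threshold. Leaving out one library at a time, its log2 difference from saline ranged from 0.68 to 0.95 and its adjusted p from 0.0171 to 0.116, with 4 of the 9 values under the threshold.

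Dlat had 421, 378 and 426 CPM in Ang II+NaBu libraries, 211, 278 and 288 CPM in Ang II libraries and 292, 194 and 268 CPM in saline libraries. Again all butyrate libraries were above all others. Dlat rose 1.63-fold against saline (log2 0.70, SE 0.167, adjusted p = 0.0422), and its log2 difference from Ang II was 0.66 (SE 0.167, adjusted p = 0.0729). The call against saline held in 2 of the 9 fits that left out a library. Pdhb had 370, 341 and 383 CPM in Ang II+NaBu libraries, 214, 287 and 287 CPM in Ang II libraries and 249, 177 and 279 CPM in saline libraries. Its groups were ordered like those of Dlat, but neither its difference from Ang II (log2 0.47, adjusted p = 0.15) nor that from saline (log2 0.63, adjusted p = 0.0617) passed. Dld was 0.39 and 0.55 higher and Pdhx 0.26 and 0.34 higher than in Ang II and in saline on the log2 scale, without a call.

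The 3 kinases and the phosphatase act on E1, the kinases in opposition to the phosphatase, and levels of both kinds were higher with butyrate. Pdk1 had 693, 664 and 747 CPM in Ang II+NaBu libraries, 416, 489 and 491 CPM in Ang II libraries and 438, 243 and 442 CPM in saline libraries. It rose 1.87-fold against saline (log2 0.91, SE 0.201, adjusted p = 0.0363), the largest difference of the 43 genes in that comparison, and its log2 difference from Ang II was 0.59 (SE 0.2, adjusted p = 0.128). Pdp1, the catalytic subunit of the phosphatase, had 123, 105 and 122 CPM in Ang II+NaBu libraries, 72.9, 85.1 and 81.9 CPM in Ang II libraries and 72.2, 63.4 and 81.9 CPM in saline libraries. Both genes had their 3 butyrate libraries above the other 6. Pdp1 rose 1.61-fold against saline (log2 0.69, SE 0.118, adjusted p = 0.0201), and that call held in 7 of the 9 fits that left out a library, whereas the call of Pdk1 held in 4. Against Ang II the log2 difference of Pdp1 was 0.55 (SE 0.118, adjusted p = 0.052).

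Pdk4, the kinase induced by fasting and fatty acids, had 278, 381 and 304 CPM in Ang II+NaBu libraries, 157, 291 and 258 CPM in Ang II libraries and 148, 220 and 154 CPM in saline libraries. Its Ang II+NaBu and Ang II libraries overlapped, since Ang II replicate 2 was above Ang II+NaBu replicate 2, and all butyrate libraries were above the saline ones. Its log2 differences were 0.45 from Ang II (adjusted p = 0.292) and 0.88 from saline (SE 0.236, adjusted p = 0.0576), and 0.43 for Ang II against saline (adjusted p = 0.894). Unlike most of the 43 genes, Pdk4 was highest in replicate 2 among the saline libraries. Pdk2, the kinase found in most tissues, had 347, 329 and 347 CPM in Ang II+NaBu libraries, 228, 269 and 268 CPM in Ang II libraries and 253, 187 and 313 CPM in saline libraries. Its log2 differences were 0.42 from Ang II and 0.45 from saline, with adjusted p-values of 0.176 and 0.134.

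**Figure D3:**
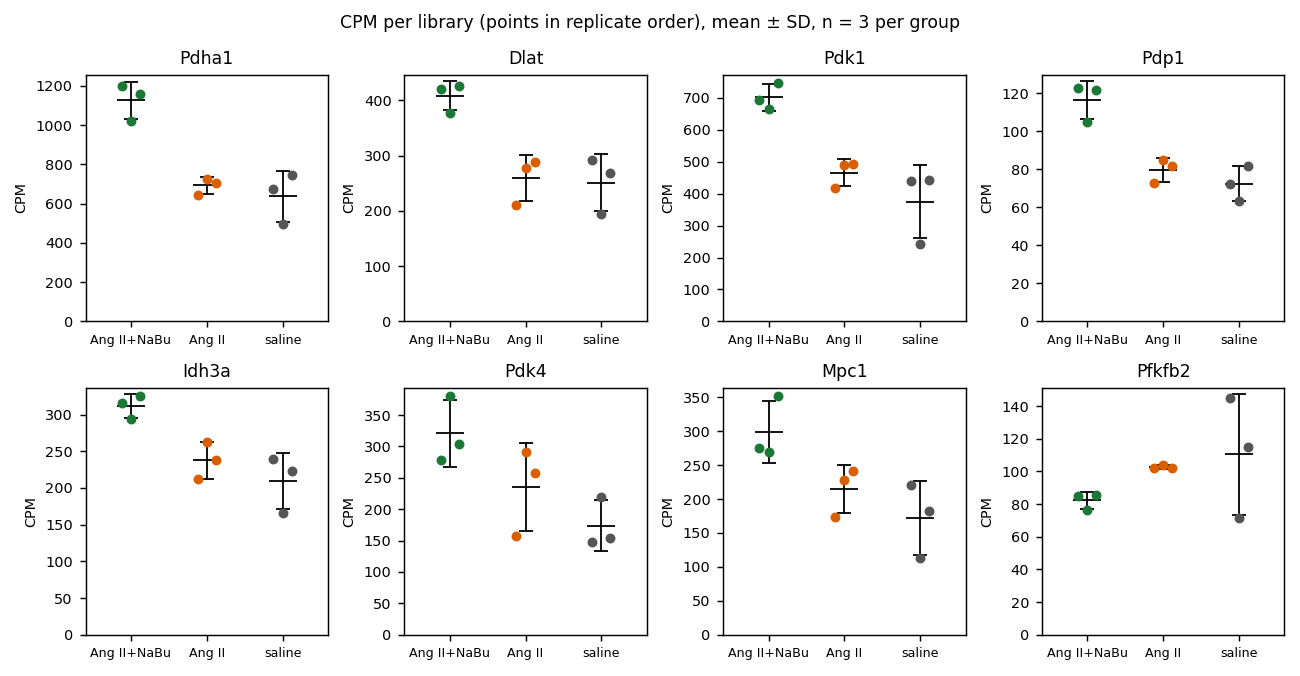
CPM of 8 genes (y axes start at 0) in each library of the 3 groups (x axis), with points for libraries and bars for the mean ± SD of 3 libraries. For Pdha1, Dlat, Pdk1, Pdp1 and Idh3a every Ang II+NaBu point lies above every other point, while Pfkfb2 is lower in Ang II+NaBu than in Ang II.

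The promoters of 3 of the 5 called genes are shown because their RNA rose together against saline, so that the letters before their starts can be compared; the table used holds no entry for Idh3a or Pdp1. They are the 250 bases before the gene start in RefSeq's table for GRCr8, written 5′ to 3′ on the gene's strand. Capitals mark matches on either strand to GGGCGG (the GC box) or ACGTG (the core that hypoxia-inducible factors bind). Pdha1 lies on the plus strand with this window at chrX:38508908-38509157, Dlat on the minus strand at chr8:59900819-59901068 and Pdk1 on the plus strand at chr3:77113264-77113513.
Pdha1: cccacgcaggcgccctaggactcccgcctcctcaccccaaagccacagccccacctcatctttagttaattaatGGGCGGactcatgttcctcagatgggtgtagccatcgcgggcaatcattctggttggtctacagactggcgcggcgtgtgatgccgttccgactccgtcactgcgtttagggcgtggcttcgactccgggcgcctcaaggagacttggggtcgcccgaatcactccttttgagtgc
Dlat: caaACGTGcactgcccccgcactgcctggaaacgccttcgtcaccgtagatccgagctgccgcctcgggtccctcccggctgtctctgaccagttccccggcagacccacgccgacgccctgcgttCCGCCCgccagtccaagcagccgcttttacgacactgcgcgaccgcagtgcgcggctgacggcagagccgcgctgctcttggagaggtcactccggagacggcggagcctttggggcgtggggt
Pdk1: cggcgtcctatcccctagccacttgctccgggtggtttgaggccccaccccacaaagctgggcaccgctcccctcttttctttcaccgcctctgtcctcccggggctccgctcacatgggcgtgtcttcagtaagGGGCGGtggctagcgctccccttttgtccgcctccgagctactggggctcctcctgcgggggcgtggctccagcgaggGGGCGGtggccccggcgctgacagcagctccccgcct

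All 3 windows held a GC box. Its first base lay 176 bases before the start in Pdha1 and 124 before it in Dlat, where it reads CCGCCC, and the Pdk1 window held 2, at 115 and 37 bases. ACGTG lay 247 bases before the start in Dlat. Pdk1 also held ACGTG in the longer window that reaches 50 bases past the start, but not within the 250 bases shown. Over the windows from 250 bases before to 50 after the start, 39 of the 43 genes had an entry, and GGGCGG was in 23 of them (59.0%) against 33.1% of all 33469 promoters in the table. ACGTG was in 13 of 39 (33.3%, against 19.3% of all), the E-box CACGTG, which contains ACGTG, in 4 (10.3%, against 6.42%), and the nuclear receptor site AAGGTCA in 2 (5.13%, against 4.61%). Both strands were searched, and a match describes the letters only. The 33469 promoters were not limited to expressed genes, whereas all 43 genes had a mean of at least 1 CPM. The shares therefore compare unlike sets, and no share over expressed genes was computed.

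All 11 citrate cycle genes, summed over transcripts, had their 3 Ang II+NaBu libraries above their 3 Ang II libraries (18.1% of all genes), with log2 differences between 0.31 and 0.50 (median 0.39). For 8 of the 11 they were also above the 3 saline libraries (14.5% of all genes, median 0.47). edgeR called 1 of the 11 against saline (5.06% of all genes) and 0 against Ang II (1.6% of all genes). All 11 were lowest in saline replicate 2.

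Idh3a, the catalytic subunit of the NAD-linked isocitrate dehydrogenase, had 316, 294 and 326 CPM in Ang II+NaBu libraries, 212, 263 and 238 CPM in Ang II libraries and 239, 166 and 223 CPM in saline libraries. It rose 1.49-fold against saline (log2 0.58, SE 0.143, adjusted p = 0.0478) and was 0.39 higher than in Ang II (SE 0.142, adjusted p = 0.148). The call was narrow and held in 1 of the 9 fits that left out a library. Its partner subunits Idh3b and Idh3g had log2 differences of 0.32 and 0.44 from Ang II and 0.39 and 0.43 from saline. With only the highest transcript of each gene the sign of Idh3g turned, to -0.63 from Ang II (adjusted p = 0.435) and -0.30 from saline (adjusted p = 0.739).

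Ogdh, the E1 subunit of the oxoglutarate dehydrogenase complex, had 1600, 1520 and 1650 CPM in Ang II+NaBu libraries, 950, 1240 and 1170 CPM in Ang II libraries and 1090, 676 and 1280 CPM in saline libraries. Dlst, the E2 subunit of that complex, had 925, 803 and 921 CPM in Ang II+NaBu libraries, 576, 684 and 676 CPM in Ang II libraries and 611, 391 and 663 CPM in saline libraries. In both genes all butyrate libraries were above the other 6. The log2 differences from Ang II and from saline were 0.50 and 0.64 for Ogdh (adjusted p = 0.187 and 0.092) and 0.45 and 0.67 for Dlst (adjusted p = 0.179 and 0.0582). The E3 subunit of that complex is Dld, shared with pyruvate dehydrogenase.

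Cs, citrate synthase, which joins acetyl-CoA to oxaloacetate and is often used as a measure of mitochondrial content, had 732, 743 and 792 CPM in Ang II+NaBu libraries, 508, 656 and 666 CPM in Ang II libraries and 653, 429 and 689 CPM in saline libraries. All butyrate libraries were highest, with log2 differences of 0.31 from Ang II and 0.36 from saline that did not pass (adjusted p = 0.333 and 0.244). The remaining citrate cycle genes behaved alike in direction. Idh2 (NADP-linked mitochondrial isocitrate dehydrogenase), Suclg1 and Sucla2 (succinyl-CoA ligase subunits) and Mdh1 and Mdh2 (cytosolic and mitochondrial malate dehydrogenase) were 0.31 to 0.50 higher than in Ang II and 0.30 to 0.54 higher than in saline.

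Pyruvate entry into mitochondria showed the same order of groups. Mpc1 and Mpc2 together form the mitochondrial pyruvate carrier. Mpc1 had 275, 270 and 352 CPM in Ang II+NaBu libraries, 174, 228 and 242 CPM in Ang II libraries and 221, 113 and 183 CPM in saline libraries. Mpc2 had 93.8, 101 and 93.2 CPM in Ang II+NaBu libraries, 36.8, 69.3 and 75.2 CPM in Ang II libraries and 76.4, 52.9 and 49.4 CPM in saline libraries. All butyrate libraries were above all others for both genes, and Ang II replicate 1 was far below its group for Mpc2. Log2 differences were 0.48 and 0.80 for Mpc1 and 0.67 and 0.69 for Mpc2, from Ang II and from saline, and none passed (adjusted p between 0.0696 and 0.25).

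Lactate dehydrogenase converts pyruvate and lactate into each other, with Ldhb the form typical of heart and Ldha the form typical of skeletal muscle. Ldhb had 1900, 2040 and 2300 CPM in Ang II+NaBu libraries, 1420, 1400 and 1890 CPM in Ang II libraries and 1440, 748 and 2030 CPM in saline libraries. Ldha had 571, 612 and 656 CPM in Ang II+NaBu libraries, 482, 559 and 542 CPM in Ang II libraries and 590, 445 and 578 CPM in saline libraries. Both were above the Ang II libraries in every butyrate library and overlapped with saline. The log2 differences from Ang II were 0.40 for Ldhb (SE 0.29) and 0.22 for Ldha (SE 0.128), with adjusted p-values of 0.445 and 0.352.

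**Figure D4:**
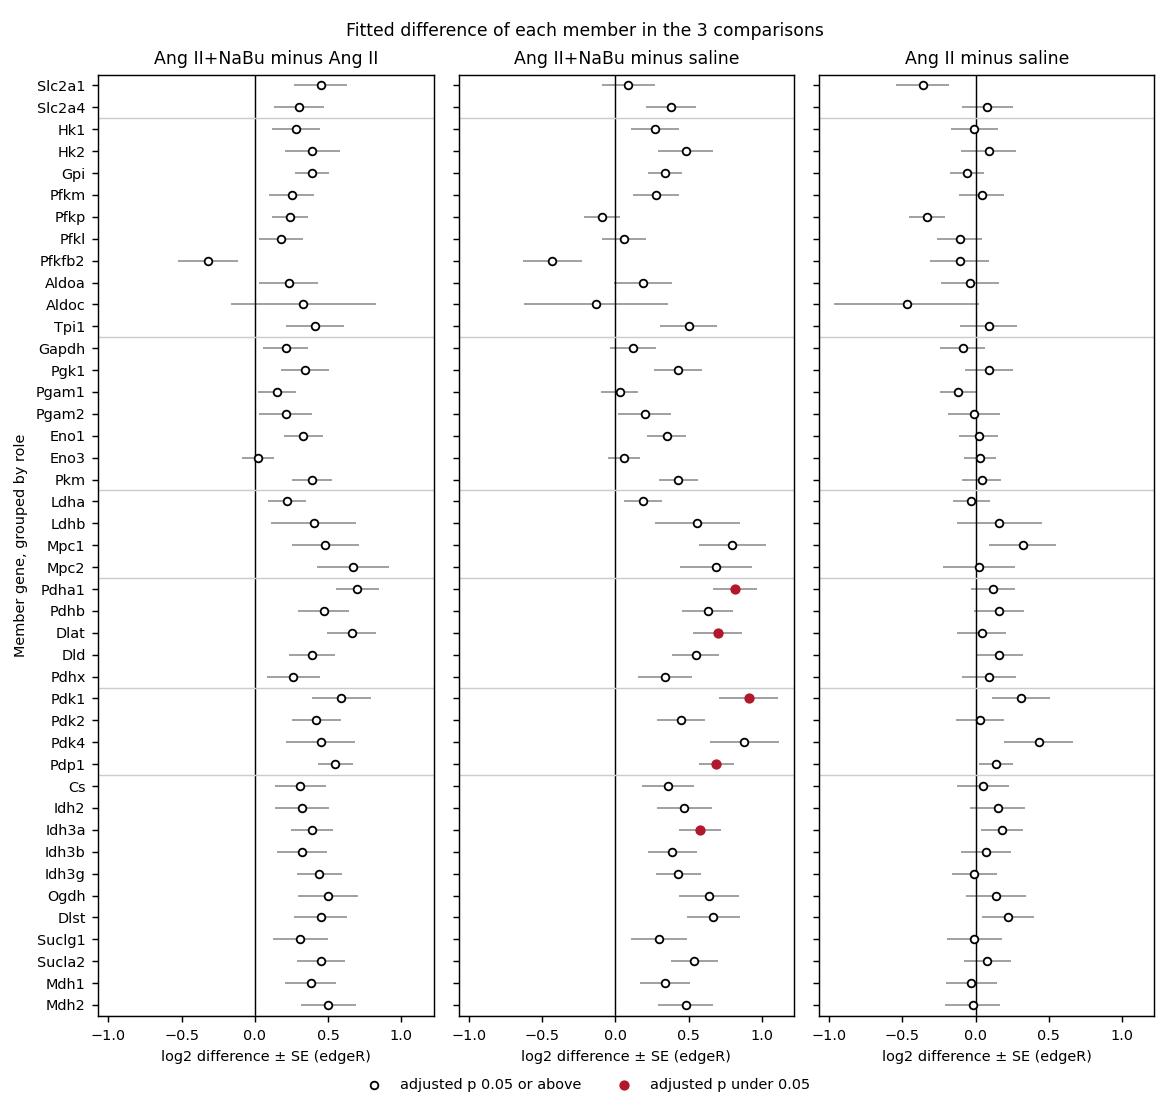
Fitted log2 difference ± SE (x axis) of each of the 43 genes (y axis, grouped by role) for Ang II+NaBu minus Ang II, Ang II+NaBu minus saline and Ang II minus saline, with called genes as filled points. The 5 filled points are in Ang II+NaBu minus saline, and Pfkfb2 is the 1 gene left of 0 in Ang II+NaBu minus Ang II.

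Glycolysis had smaller differences than the mitochondrial steps on the same log2 scale. Its 17 enzymes had median log2 differences of 0.25 from Ang II and 0.20 from saline, while the 20 genes of pyruvate dehydrogenase, its regulators and the citrate cycle had medians of 0.44 and 0.55. No test of the difference between these lists was made. edgeR called 0 of the 17 enzymes in any comparison, with 3 unadjusted p-values under 0.05 against Ang II (17.6%, against 22.4% of all genes) and 6 against saline (35.3%, against 24.6% of all genes).

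Glucose enters heart muscle through the insulin-responsive transporter Slc2a4 (GLUT4) and the basal transporter Slc2a1 (GLUT1). Slc2a4 had 222, 232 and 246 CPM in Ang II+NaBu libraries, 160, 199 and 207 CPM in Ang II libraries and 198, 130 and 209 CPM in saline libraries. All its butyrate libraries were above the other 6, with log2 differences of 0.30 from Ang II (adjusted p = 0.333) and 0.38 from saline (adjusted p = 0.205). Slc2a1 had 12.7, 13.1 and 16.3 CPM in Ang II+NaBu libraries, 9.73, 10.8 and 10.2 CPM in Ang II libraries and 11.8, 10.8 and 16.9 CPM in saline libraries. It was the 1 gene of the 43 whose Ang II libraries were all below the saline libraries, by a margin smaller than the rounding of the highest Ang II and lowest saline values. Its log2 differences were 0.45 for Ang II+NaBu against Ang II (adjusted p = 0.179), 0.09 for Ang II+NaBu against saline (adjusted p = 0.795) and -0.36 for Ang II against saline (SE 0.181, adjusted p = 0.874).

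In upper glycolysis, 9 of 10 genes were higher in Ang II+NaBu than in Ang II (median log2 0.26) and 7 of 10 higher than in saline (median 0.23). Hk2, the hexokinase typical of muscle, had 223, 194 and 213 CPM in Ang II+NaBu libraries, 160, 162 and 159 CPM in Ang II libraries and 159, 101 and 191 CPM in saline libraries. The 3 Ang II libraries were nearly equal, and all butyrate libraries were above all others (log2 0.39 from Ang II, adjusted p = 0.251, and 0.48 from saline, adjusted p = 0.15). Pfkm, the muscle form of phosphofructokinase, had 536, 521 and 574 CPM in Ang II+NaBu libraries, 397, 497 and 482 CPM in Ang II libraries and 485, 342 and 516 CPM in saline libraries, with log2 differences of 0.25 and 0.28. Tpi1, triosephosphate isomerase, had 294, 287 and 319 CPM in Ang II+NaBu libraries, 195, 241 and 240 CPM in Ang II libraries and 223, 143 and 268 CPM in saline libraries. Its butyrate libraries were also the 3 highest, and its log2 differences were 0.41 from Ang II (adjusted p = 0.246) and 0.50 from saline (adjusted p = 0.148). Aldoc, the brain form of aldolase, had 2.16, 3.04 and 2.10 CPM in Ang II+NaBu libraries, 2.35, 1.22 and 2.22 CPM in Ang II libraries and 1.20, 4.92 and 1.85 CPM in saline libraries, and its groups overlapped in each comparison. The others were Hk1, Gpi, Pfkp, Pfkl and Aldoa, with log2 differences of 0.18 to 0.39 from Ang II.

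Pfkfb2, the heart form of the enzyme that makes and breaks fructose 2,6-bisphosphate, the activator of phosphofructokinase, went the other way. It had 85.2, 76.4 and 85.3 CPM in Ang II+NaBu libraries, 102, 104 and 102 CPM in Ang II libraries and 145, 71.6 and 115 CPM in saline libraries. All butyrate libraries were below all Ang II libraries, which were nearly equal, while the saline libraries spanned both. Its log2 difference was -0.32 from Ang II (SE 0.202, adjusted p = 0.385) and -0.43 from saline (SE 0.202, adjusted p = 0.224). Pfkfb2 passed the test only in fits that left out saline replicate 2, and not in every one of those: it passed against saline without that replicate and against Ang II when the saline libraries were left out.

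Lower glycolysis had 7 of 7 genes higher in Ang II+NaBu than in Ang II (median log2 0.21), although Eno3, muscle enolase, was at 0.02 and turned to -0.01 under upper-quartile scaling and to -0.09 under scaling by total counts. Gapdh, which oxidises glyceraldehyde 3-phosphate and often serves as a reference transcript, had 3210, 3090 and 3270 CPM in Ang II+NaBu libraries, 2420, 2930 and 2910 CPM in Ang II libraries and 2960, 2290 and 3550 CPM in saline libraries. Its butyrate libraries were above the Ang II libraries but not above saline replicate 3 (log2 0.21, adjusted p = 0.451, and 0.12, adjusted p = 0.672). Pkm, pyruvate kinase, which makes pyruvate, had 829, 800 and 875 CPM in Ang II+NaBu libraries, 593, 665 and 654 CPM in Ang II libraries and 635, 502 and 725 CPM in saline libraries. All its butyrate libraries were above the other 6, with log2 differences of 0.39 (adjusted p = 0.133) and 0.43 (adjusted p = 0.0875). Pgam1, the phosphoglycerate mutase of most tissues, had 112, 132 and 135 CPM in Ang II+NaBu libraries, 93.6, 120 and 127 CPM in Ang II libraries and 129, 123 and 119 CPM in saline libraries, and its groups overlapped. Pgk1, Pgam2 and Eno1 were 0.34, 0.21 and 0.33 higher than in Ang II on the log2 scale. Reads of Gapdh and Pgam1, which have near-identical pseudogene copies in mammals, may be split among copies in a way that the tables do not show.

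Ratios of 2 genes within a library do not depend on scaling, and 10 such ratios were compared in 3 comparisons each. No adjusted p was under 0.462 in exact two-sided permutation tests of 3 against 3 libraries, in which the smallest possible p is 0.1. The log2 ratio of Pdk1 to Pdk2 was 1.00, 1.01 and 1.11 in Ang II+NaBu libraries, 0.87, 0.86 and 0.87 in Ang II libraries and 0.80, 0.38 and 0.50 in saline libraries. The groups did not overlap in any of the 3 comparisons, with mean differences of 0.17 (Ang II+NaBu minus Ang II), 0.48 (Ang II+NaBu minus saline) and 0.31 (Ang II minus saline), each with an exact permutation p of 0.1. The log2 ratio of Hk1 to Hk2 was 0.21, 0.21 and 0.26 in Ang II+NaBu libraries, 0.32, 0.31 and 0.36 in Ang II libraries and 0.44, 0.54 and 0.36 in saline libraries. The butyrate libraries were below all others, by a mean of -0.11 from Ang II and -0.22 from saline (exact permutation p = 0.1 for both). The other 8 ratios, among them Pdk4 to Pdk2 and Ldha to Ldhb, overlapped between groups in all comparisons.

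**Figure D5:**
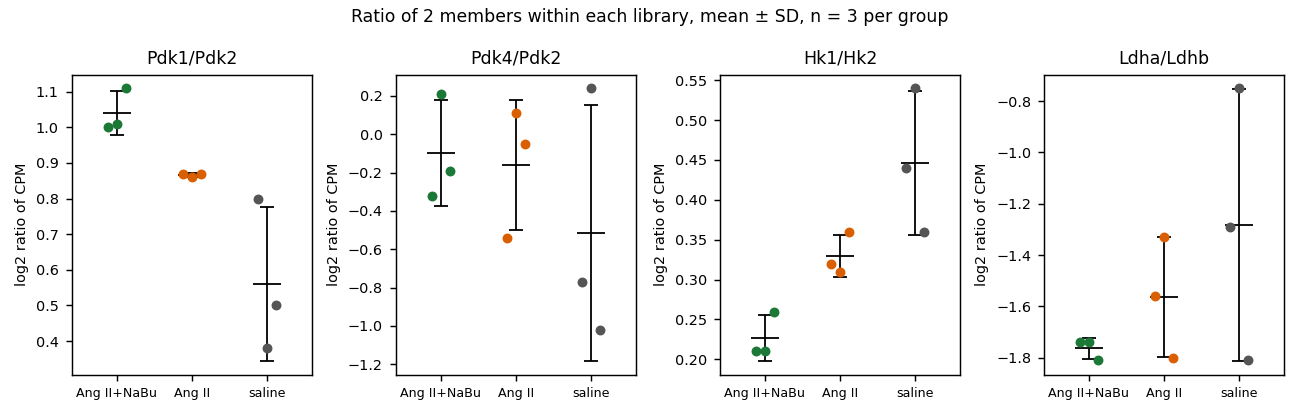
Log2 ratio of the CPM of 2 genes within each library (y axis) by group (x axis), with points for libraries and bars for the mean ± SD of 3 libraries. Pdk1/Pdk2 stands highest and Hk1/Hk2 lowest in the 3 Ang II+NaBu libraries, whereas Pdk4/Pdk2 and Ldha/Ldhb overlap between groups.

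The deposited values are per transcript, and the 43 genes had 93 transcripts, with 21 genes at 1 transcript and 22 at 2 or more. The transcript holding the largest share of a gene differed between groups in 2 genes, Idh3g and Pfkfb2. For Idh3g the transcript NM_031551.1 held 53.6%, 34.0% and 67.4% of the gene's counts in Ang II+NaBu libraries, 11.6%, 31.2% and 21.3% in Ang II libraries and 23.5%, 24.3% and 45.8% in saline libraries. That share was higher in every Ang II+NaBu library than in any Ang II library and overlapped with saline, and the sum over Idh3g transcripts does not show it. For Ldhb the transcript NM_012595.2 held 88.9%, 87.8% and 90.5% in Ang II+NaBu libraries, 81.8%, 44.9% and 83.6% in Ang II libraries and 44.2%, 42.9% and 89.3% in saline libraries. Estimated shares of overlapping transcripts rest on few distinguishing reads, and the depth behind each share is unknown. Pdha1 and Dlat each had 1 transcript.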

How the data were processed

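Per the labels' protocols, total RNA was taken up in Trizol, cleared of DNA and prepared with the TruSeq kit. Estimated counts were deposited by the authors as 1 table for each group, whose lines are transcripts with their gene names, per the file headers. The saline table has a stray line-end character in its last column, which was stripped, and its deposited values (other than that) are estimated counts like those of the other 2 tables. All values were whole numbers. For the alternative with values divided by 4, a worth of 4 counts per fragment was set beforehand and not measured in the fits. Per the submitters' processing notes, Bowtie 0.12.2 and the build mm8, a mouse build, were used, although the IDs are those of rat RefSeq transcripts. How reads were counted, on which annotation and strand, is not given in the sources used here. Reads shared by paralogs, pseudogenes or overlapping genes are therefore uncertain. Each table holds 1 group, so table and group cannot be told apart. The labels do not say that libraries came from separate animals, and p-values therefore measure only the spread between the samples at hand, which may be technical.

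Transcripts were summed by gene name (55767 transcripts, 22608 genes). Idh3b is spelled Idh3B in the tables and was matched through its transcript IDs. Total estimated counts were 38567961 to 49865446 in Ang II+NaBu, 31367765 to 42742628 in Ang II and 29284780 to 34022912 in saline libraries. edgeR 4.0.16 (R 4.3.3, limma 3.58.1) was fitted to all 9 libraries with TMM factors (0.887 to 1.14), filterByExpr and the quasi-likelihood test, with a prior count of 0.125 and a common biological coefficient of variation of 0.256. CPM are relative to TMM-scaled totals. The SE of a log2 difference is its absolute value divided by the square root of the F statistic of the quasi-likelihood test. It therefore rests on a spread estimated over all 9 libraries and not on the 2 groups compared alone. A gene was called at a Benjamini-Hochberg adjusted p under 0.05 over all 15467 genes tested, and adjusted p-values are edgeR's unless DESeq2 (1.42.0) is named. Ratios of 2 genes were compared with exact permutation tests (scipy 1.17.1), adjusted over 10 ratios and 3 comparisons. Library medians used a pseudocount of 0.1 CPM. The fit was tested on simulated data in which no single library was set apart. That test therefore does not show how the fit deals with a library such as saline replicate 2.

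The 43 genes, the role groups and the marker lists were chosen with earlier results of these data known. Values in every library are given for called genes, for the largest difference of each role group against Ang II and in Ang II against saline, and for 15 control points of the pathway. The Ang II and saline columns carry the numbers 1 to 3, but same-numbered libraries did not deviate together (correlations -0.072, -0.065 and -0.019), and the Ang II+NaBu columns carry 2, 4 and 6, which match no sample title.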

Additional observations from a re-analysis of the deposited data

How the results depend on the processing

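The median SE of a log2 difference over the 43 genes was 0.172, with 3 libraries per group. No called gene changed sign under any alternative. Shares in brackets are of all genes tested in the same fit. The count of the 43 genes called against Ang II (0, 1.6%) was 1 under upper-quartile scaling (1.91%) and 1 without a filter (1.27%). It was 2 with values divided by 4 (2.59%), 12 with DESeq2 (13.1%) and 22 with those 2 groups alone (11.9%). The count called against saline (5, 5.06%) was 21 with DESeq2 (15.1%), 0 with the highest transcript per gene (0.13%) and 0 with the 2 groups alone (0.0596%). Without saline replicate 2 and Ang II replicate 1 together, an alternative chosen after seeing the data, the counts were 3 (0.74%) and 11 (4.31%). Leaving out one library at a time gave 0 to 21 calls against Ang II (0.00634% to 9.43%) and 0 to 14 against saline (0.0381% to 8.24%). Ang II against saline had 0 of the 43 called under every alternative, where at most 0.347% of all genes were called (DESeq2).

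Over all genes, the calls against Ang II (248) were 4 under total count scaling, 5 with the highest transcript, 1544 with DESeq2, 1802 with the 2 groups alone, 1695 without saline replicates 2 and 3, 116 under the added alternative and 1 to 1482 without one library. The calls against saline (782) were 411 under total count scaling, 20 with the highest transcript, 1994 with DESeq2, 9 with the 2 groups alone, 109 without saline replicates 2 and 3, and 6 to 1303 without one library. The calls of Ang II against saline (0) were 60 with DESeq2, 3 with the highest transcript, 1 with the 2 groups alone, 11 without saline replicates 2 and 3, 1 under the added alternative and 0 to 7 without one library.

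The median over the 43 genes against Ang II lay between 0.28 and 0.43 in all settings, with at most 1 gene changing sign in each (among them Idh3g with the highest transcript). Total count scaling moved the median of all genes to -0.133, and the 43 genes then stood 0.41 above it, against 0.42 in the TMM fit. The median against saline lay between 0.26 (the added alternative) and 0.56 (without saline replicate 3), with 0.27 without saline replicate 2, and that of Ang II against saline between -0.12 and 0.17, with up to 22 genes changing sign. A fit of Ang II against saline with the replicate number as a block gave a median of 0.05 and 0 calls. No paired analysis was possible for the Ang II+NaBu comparisons because their column numbers do not match those of the other groups. The causes of these differences were not tested.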

Other observations

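Of 53 further genes listed for glycolysis, pyruvate and the citrate cycle, 43 had a mean of at least 1 CPM, and 30 of them were higher in Ang II+NaBu than in Ang II (median log2 0.22, 0 called by edgeR, against 1.6% of all genes) and 28 higher than in saline (median 0.28). The 2 called against saline (4.65%) are near the share of all genes called (5.06%). An unadjusted p under 0.05 was reached by 11 against Ang II (25.6%), near the 22.4% of all genes, and by 18 against saline (41.9%, against 24.6% of all genes). Me1, the cytosolic malic enzyme, which makes NADPH and pyruvate from malate, had 165, 145 and 177 CPM in Ang II+NaBu libraries, 93.0, 108 and 114 CPM in Ang II libraries and 92.1, 66.6 and 96.7 CPM in saline libraries. It rose against saline (log2 0.93, SE 0.15, adjusted p = 0.0181) and its difference from Ang II was 0.63 (adjusted p = 0.0635). Pdpr, the regulatory subunit of the pyruvate dehydrogenase phosphatase, had 175, 177 and 183 CPM in Ang II+NaBu libraries, 105, 147 and 134 CPM in Ang II libraries and 125, 96.9 and 125 CPM in saline libraries. It also rose against saline (log2 0.62, SE 0.141, adjusted p = 0.0374). For both genes the 3 butyrate libraries were above the other 6.

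The 3 largest differences from Ang II in that list had wide spreads. Sdhc, a membrane subunit of succinate dehydrogenase, had 65.7, 239 and 85.4 CPM in Ang II+NaBu libraries, 47.8, 70.3 and 73.9 CPM in Ang II libraries and 197, 137 and 206 CPM in saline libraries, so its Ang II+NaBu value rests on replicate 4. Its log2 difference was 1.02 from Ang II (SE 0.416, adjusted p = 0.187) and -1.49 for Ang II against saline (adjusted p = 0.719). Eno2 (-0.89, adjusted p = 0.673) and Pfkfb1 (-0.88, adjusted p = 0.33) were at no more than 6.41 and 2.86 CPM in any library. The other succinate dehydrogenase subunits Sdha, Sdhb and Sdhd were 0.35, 0.20 and 0.31 higher than in Ang II, without a call.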
